A study of Mus musculus with 4 samples.

Results

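Matrix metalloproteinases (MMPs) and their tissue inhibitors (TIMPs) were followed in mouse macrophages that had been given fat. The genes were taken by name: Mmp2, Mmp8, Mmp9, Mmp12, Mmp13, Mmp14, Mmp19, Timp1, Timp2 and Timp3, which are 10 of the 17013 genes in the deposited values. Macrophages were grown with M-CSF from the bone marrow of wild-type (WT) male C57BL/6 mice and kept on porous culture inserts. Mouse abdominal fat was freeze-thawed and centrifuged, and its middle layer served as the fat control medium (Con) and its fatty top layer as the high-fat-containing medium (Fat). Both groups received artificial necrotic bone fluid (aNBF), made from freeze-thawed bone, and both were harvested at 24 h, so the comparison is of a fatty with a less fatty necrotic medium and there is no culture without necrotic material. The age of the mice and the number of animals behind a culture are not given in the sources used here. RNA was sequenced in 2 Con and 2 Fat libraries. The cells were not sorted by fat uptake.

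MMPs are zinc-dependent endopeptidases that cut collagens, elastin and other matrix proteins, and also cytokines and chemokines. They are made as proenzymes in which a propeptide blocks the zinc, and they become active when furin, plasmin or another MMP removes it. TIMPs sit in the active site and block it. Macrophages are a main source of the metalloelastase MMP12, while MMP9, MMP13 and MMP14 are known for their parts in bone turnover, which is why the family is of interest in necrotic bone.

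Of the members, Mmp12, Mmp13 and Mmp8 lie in a single cluster of MMP genes on mouse chromosome 9. In the RefSeq gene order (GRCm38.p6) its 10 genes run Mmp13, Mmp12, Mmp1b, Mmp3, Mmp1a, Mmp10, Mmp8, Mmp27, Mmp20 and Mmp7. The cluster is shown by the stretch before each start site because its genes did not move alike in Fat, and because the letters of the AP-1 motif, the binding sequence of Fos and Jun proteins, stand in many of them. Below are the 100 bases before the annotated start of the cluster's 3 members and of Mmp27, the neighbour of Mmp8, on the plus strand, 5′ to 3′. Capitals mark the AP-1 letters (TGAGTCA or its reverse complement TGACTCA) and the TATA box letters TATAAA. Mmp12 has 2 annotated starts, and both are given.
Mmp13, chr9:7272414-7272513: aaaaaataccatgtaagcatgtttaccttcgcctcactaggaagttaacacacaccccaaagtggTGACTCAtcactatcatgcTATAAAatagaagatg
Mmp12, first start, chr9:7344297-7344396: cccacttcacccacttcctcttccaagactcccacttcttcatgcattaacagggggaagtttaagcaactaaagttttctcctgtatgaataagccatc
Mmp12, second start, chr9:7347274-7347373: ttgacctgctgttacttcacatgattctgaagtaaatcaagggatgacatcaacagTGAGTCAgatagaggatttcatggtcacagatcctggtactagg
Mmp8, chr9:7558329-7558428: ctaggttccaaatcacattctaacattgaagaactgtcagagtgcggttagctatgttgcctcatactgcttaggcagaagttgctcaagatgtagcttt
Mmp27, chr9:7571296-7571395: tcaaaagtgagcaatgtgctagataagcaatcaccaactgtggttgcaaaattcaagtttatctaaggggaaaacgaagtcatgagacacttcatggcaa

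In Mmp13 the AP-1 letters began 35 bases and the TATA letters 16 bases before the start, while the second start of Mmp12 had the AP-1 letters 44 bases before it. The printed stretches of Mmp8 and Mmp27 held neither. In windows from 250 bases before to 50 bases after a start, searched on both strands, the AP-1 letters were found in 7 of the 10 cluster genes and in 0 of the 12 other MMP and TIMP genes with a window. Counted by gene as well, 5.95% of 27025 RefSeq genes held the AP-1 letters in any of their windows, and 15.7% held TATAAA. Of all 32851 RefSeq windows, 5.2% held the AP-1 letters, and 13.6% held TATAAA. A window was at hand for 7 of the 10 members, all but Mmp2, Mmp9 and Mmp19. A match describes the letters only, and neither binding nor start site use was measured.

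Levels below are in CPM, the reads of a gene scaled to the size of the library. The libraries held between 33573852 and 40785872 reads, and 1 read was worth between 0.0244 and 0.0295 CPM. Changes are log2 fold changes of Fat over Con on the log2(CPM + 0.1) scale, with the standard error (SE), from limma fitted over the 12470 genes that reached 0.5 CPM in 2 or more of the 4 libraries. A gene was called at an adjusted p-value (Benjamini-Hochberg, two-sided) under 0.05. No source states that the libraries of a group came from separate cultures or animals, so the p-values measure the spread between these libraries, which may be technical. Of the genes tested, 1122 (9.0%) were called, against 666 without Con replicate 1, 529 without Fat replicate 2 and 31 when the mean-variance trend was left out. Of the macrophage markers, Cd68, Csf1r, Itgam and Lyz2 were abundant in every library. Of the 9 tested, 7 had negative and 2 positive changes, with a median log2 fold change of -0.31. In 7 both Fat libraries lay below both Con libraries (26.2% of all tested genes), and in 2 the groups overlapped. limma called 4 (Mertk, C1qa, C1qb and Fcgr1) lower in Fat, where 5.0% of all tested genes were. edgeR's exact test and DESeq2 also called Lyz2 lower, and Csf1r and Cd14 were lower at an unadjusted limma p under 0.05. The macrophage markers summed to 37528 and 35392 CPM in Con and to 29337 and 27727 CPM in Fat, and the part of this shift in the changes of the members was not tested.

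All 10 members passed the filter on low values. Mmp19 rose in Fat, Mmp8, Mmp14 and Timp3 fell, and the other 6 were not called. Thus 1 of 10 was called higher, where 3.99% of all tested genes were, and 3 of 10 were called lower, where 5.0% were. The median log2 fold change of the members was -0.01 and that of all tested genes 0.01. In Mmp2, Mmp12 and Mmp19 both Fat libraries lay above both Con libraries (29.4% of all tested genes), in Mmp8, Mmp13, Mmp14 and Timp3 both lay below (26.2%), and in Mmp9, Timp1 and Timp2 the groups overlapped. The groups were thus apart in 7 of 10 members and in 55.6% of all tested genes. These shares describe the list and were not tested.

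**Figure D1:**
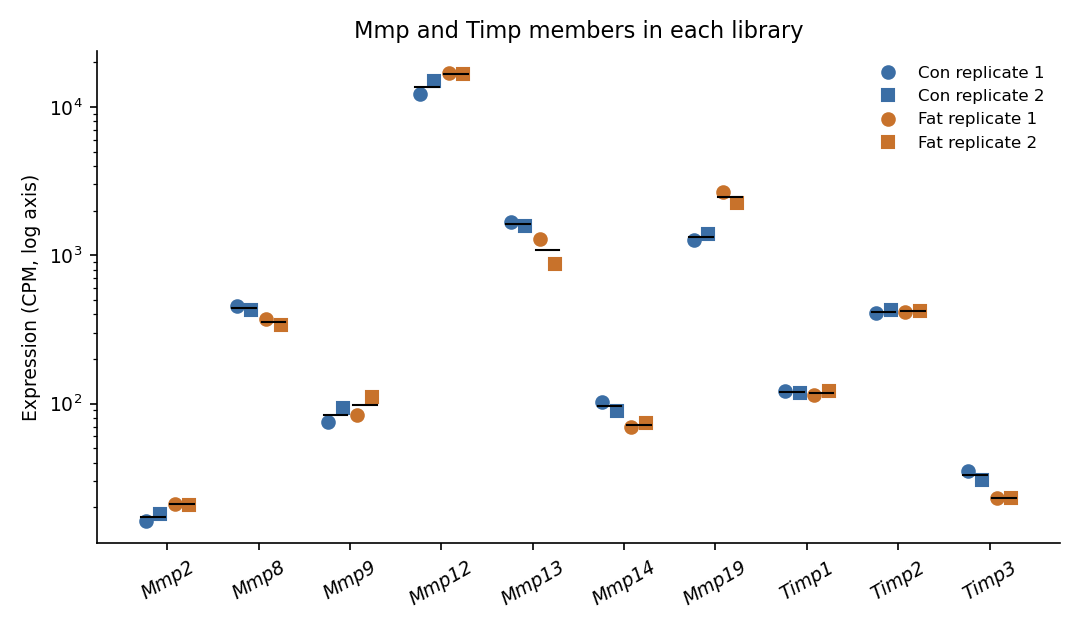
CPM (log axis) of each of the 10 members in the 2 Con and 2 Fat libraries, each point a library and each short bar a group mean. Mmp19 stands higher and Mmp8, Mmp14 and Timp3 stand lower in both Fat libraries, while the points of Timp1 and Timp2 lie on each other.

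Mmp19, which encodes a secreted MMP that cuts basement membrane proteins, was at 1274 and 1401 CPM in the Con libraries, named in the order of their replicate numbers here and throughout, and at 2682 and 2241 CPM in the Fat libraries. The lower Fat library was thus well above the higher Con library. The group means were 1337 ± 89.7 and 2462 ± 312.1 CPM (SD, n = 2 each), a rise of 83.5%. The log2 fold change was 0.88 (SE 0.11, 95% confidence interval 0.63 to 1.12, limma adjusted p = 0.00514). When any library was left out it stayed between 0.75 and 1.01 and Mmp19 was called each time, but without the mean-variance trend the adjusted p-value was 0.0831. In the GENCODE vM21 annotation 22.3% of the exon bases of Mmp19 are also exon bases of Tmem198b on the opposite strand. The libraries were made with a strand-keeping kit, but whether strand was used in counting is not given in the sources used here, so reads of the overlap could belong to either gene. Tmem198b was at 17.0 and 18.3 CPM in Con and at 18.8 and 21.2 CPM in Fat, and was not called (log2 fold change 0.18, limma adjusted p = 0.272).

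The collagenases MMP13 and MMP8 cut fibrillar collagen, and both of their genes had negative changes. Mmp13 was at 1667 and 1570 CPM in Con and at 1297 and 873.7 CPM in Fat. Both Fat libraries were below Con but far apart, and the log2 fold change of -0.60 (SE 0.16, 95% confidence interval -0.99 to -0.22) was not called (limma adjusted p = 0.0656). Without Fat replicate 1, the nearer of the 2 to Con, the log2 fold change was -0.89 (limma adjusted p = 0.00106), and without Fat replicate 2 it was -0.32. edgeR's exact test on the recovered reads called Mmp13 lower (adjusted p = 0.00669). edgeR's quasi-likelihood test (adjusted p = 0.0707) and DESeq2 (adjusted p = 0.256) did not call it.

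Mmp8, the neutrophil collagenase gene, was at 457.8 and 426.1 CPM in Con and at 373.5 and 340.1 CPM in Fat. It fell by 19.3% (log2 fold change -0.31, SE 0.07, limma adjusted p = 0.0357), and the libraries within a group differed by less than the groups did. The call was lost without Con replicate 1 (log2 fold change -0.26, adjusted p = 0.0972) and without Fat replicate 2 (-0.24, adjusted p = 0.187). It was lost as well with the values per length, TPM (adjusted p = 0.0863), and without the mean-variance trend (adjusted p = 0.158). The neutrophil markers in these cultures summed to 420.5 and 370.1 CPM in Con and to 362.7 and 361.8 CPM in Fat. Of the 9 neutrophil markers tested, 7 had negative changes and all had reads in every library. limma called 0 of them (3 lower at an unadjusted p under 0.05), edgeR's quasi-likelihood test and DESeq2 called 0, and edgeR's exact test called 3 lower (Mpo, Camp and Ngp). Their part in the change of Mmp8 was not tested. In bulk RNA, fewer cells of a type and less RNA per cell cannot be told apart.

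MMP12, the macrophage metalloelastase, cuts elastin. Its gene was at 12283 and 14888 CPM in Con and at 16901 and 16586 CPM in Fat, the most reads of any member. The Con libraries were further apart than the Fat libraries, and the change of 0.31 on the log2 scale (SE 0.16, 95% confidence interval -0.07 to 0.69) was not called (limma adjusted p = 0.300). DESeq2 and edgeR's exact test on the recovered reads did call it higher (adjusted p = 0.0235 and 0.0409). edgeR's quasi-likelihood test did not (adjusted p = 0.211). Without Con replicate 1 the difference was 0.17 and without Con replicate 2 it was 0.45. A small part of the Mmp12 exon bases, 2.17%, overlaps Mmp1b on the opposite strand, and Mmp1b had at most 5 reads in a library.

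MMP14 is a collagenase held in the cell membrane, where with TIMP2 it activates the gelatinase MMP2. Mmp14 was at 103.1 and 89.0 CPM in Con and at 69.0 and 73.5 CPM in Fat, a fall of 25.6%. Its log2 fold change of -0.43 (SE 0.08, 95% confidence interval -0.61 to -0.24, limma adjusted p = 0.0198) was called with each library left out in turn, but with the TPM values the adjusted p-value was 0.0564 and without the trend 0.131. Mmp2 had the opposite sign, with 16.2 and 17.9 CPM in Con and 21.2 and 20.7 CPM in Fat. The groups of Mmp2 did not overlap, but its log2 fold change of 0.30 (SE 0.08, 95% confidence interval 0.11 to 0.49) was not called (limma adjusted p = 0.0690). edgeR's exact test called it higher (adjusted p = 0.0386), but edgeR's quasi-likelihood test (adjusted p = 0.0709) and DESeq2 (adjusted p = 0.174) did not.

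Mmp9 encodes the other gelatinase, which is stored in neutrophil granules and made by osteoclasts and macrophages. It was at 74.7 and 92.9 CPM in Con and at 83.9 and 110.4 CPM in Fat. The groups overlapped, and the log2 fold change of 0.21 (SE 0.14) had a 95% confidence interval from -0.12 to 0.54 (limma adjusted p = 0.425). The value moved with single libraries and was 0.05 without Con replicate 1, 0.36 without Con replicate 2, 0.41 without Fat replicate 1 and 0.0094 without Fat replicate 2. Of 6 osteoclast markers tested, 3 were called by limma, all higher (Ocstamp, Dcstamp and Itgb3), where 3.99% of all tested genes were. Among the low ones Calcr had 0 reads in 3 libraries and 2 in Con replicate 1. The whole list summed to 1521 and 1705 CPM in Con and 1624 and 1524 CPM in Fat, which overlap. The part of osteoclasts in the change of Mmp9 was not tested.

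TIMP3 is the inhibitor that binds to the matrix and that also blocks ADAM proteases such as ADAM17. Timp3 was at 35.1 and 30.5 CPM in Con and at 22.9 and 23.1 CPM in Fat, with the Fat libraries nearly equal. It fell by 29.6% (log2 fold change -0.51, SE 0.08, 95% confidence interval -0.70 to -0.31, limma adjusted p = 0.0139). The call held with each library left out in turn (-0.61 to -0.41) and with the TPM values, and the adjusted p-value without the trend was 0.0989. Of the exon bases of Timp3, 21.3% are shared with Syn3 on the opposite strand, which was not analysed here.

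For the genes of the soluble inhibitors TIMP1 and TIMP2 no difference was found, and their intervals were narrow. Timp1, whose product binds proMMP9, was at 121.5 and 116.9 CPM in Con and at 113.4 and 122.2 CPM in Fat (log2 fold change -0.02, 95% confidence interval -0.16 to 0.12, limma adjusted p = 0.891). Timp2, whose product takes part in activating MMP2, was at 409.9 and 424.9 CPM in Con and at 416.0 and 420.4 CPM in Fat (log2 fold change 0.00, 95% confidence interval -0.13 to 0.13, limma adjusted p = 0.984). The Fat and Con libraries of both genes were interleaved, and the sign of their small differences turned between alternatives. Timp1 lies inside the gene Syn1 on the opposite strand without shared exon bases, and Syn1 was called higher at 11.9 and 12.8 CPM in Con and 16.3 and 15.7 CPM in Fat (log2 fold change 0.37, limma adjusted p = 0.0394).

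Stromal cells also make Mmp2, Mmp14 and Timp3. The fibroblast and stromal markers summed to 711.5 and 735.0 CPM in Con and to 605.4 and 765.0 CPM in Fat, which overlap. Of the 8 tested, 6 had negative and 2 positive changes, with a median log2 fold change of -0.19. In 5 of them both Fat libraries lay below both Con libraries (26.2% of all tested genes), and in 1 both lay above (29.4%). At an unadjusted limma p under 0.05, 4 were lower (Col3a1, Dcn, Pdgfra and Cxcl12) and 0 higher. After adjustment only Dcn was called by limma, as lower, where 5.0% of all tested genes were. DESeq2 called 0, edgeR's exact test also called Pdgfra lower, and Dpt had 0 reads in Con replicate 2. The adipocyte genes Adipoq, Lep and Pck1 had 0 reads in both Con libraries and between 10 and 30 in each Fat library. Of the 3 adipocyte markers tested, Cidec and Plin4 were called higher by limma, where 3.99% of all tested genes were, and by both edgeR tests. DESeq2 gave no adjusted p-value for Cidec and Plin4. Lipe was at 20.1 and 20.0 CPM in Con and 16.3 and 18.6 CPM in Fat (-0.20, limma adjusted p = 0.211). The log2 fold changes of the 3 tested ranged from -0.20 (Lipe) to 3.63, with a median of 2.79. The sums of the adipocyte list were 20.3 and 20.2 CPM in Con and 22.0 and 22.1 CPM in Fat. Lipe made up most of each sum, so the sums hide the rise of the other markers. The part of these cells in the changes of the members was not tested.

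**Figure D2:**
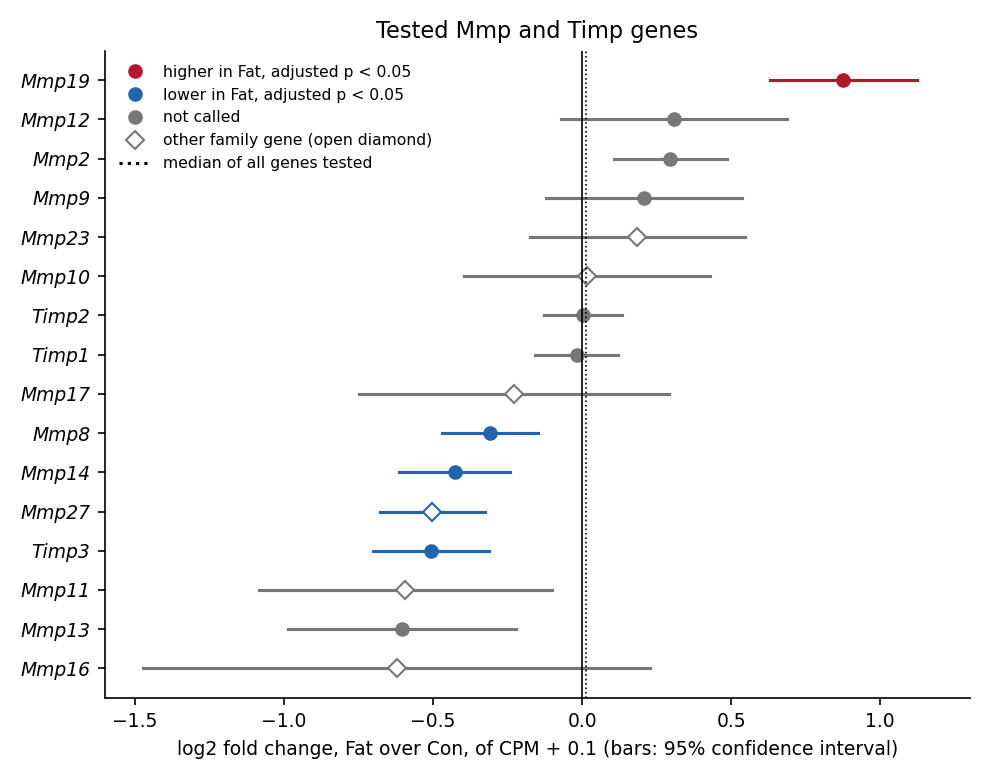
Log2 fold change of Fat over Con, with its 95% confidence interval, for the 10 members (circles) and the 6 other MMP genes that passed the filter (diamonds). Mmp19 lies above 0, and Mmp8, Mmp14, Mmp27 and Timp3 lie below it with adjusted p-values under 0.05. The dotted line marks the median of all genes tested.

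A further 15 MMP and TIMP genes were among the deposited values, and 6 of them passed the filter, with a median log2 fold change of -0.36. Mmp27, which follows Mmp8 in the cluster, was at 24.7 and 23.5 CPM in Con and at 17.4 and 16.6 CPM in Fat, and fell (log2 fold change -0.50, SE 0.07, limma adjusted p = 0.00990, called with each library left out in turn and with the TPM values). The other 5 were low, between 0.268 and 3.37 CPM, and were not called. Their log2 fold changes were 0.02 for Mmp10, -0.59 for Mmp11, -0.62 for Mmp16, -0.23 for Mmp17 and 0.19 for Mmp23 (adjusted p between 0.135 and 0.973). When any library was left out, the value ranged from -1.04 to -0.20 for Mmp16, from -0.45 to -0.0062 for Mmp17 and from 0.086 to 0.28 for Mmp23. Below the filter were Mmp1a, Mmp1b, Mmp3, Mmp7, Mmp15, Mmp24, Mmp25, Mmp28 and Timp4, none with more than 16 reads in a library. Mmp1a and Mmp7 had 0 reads in both Con libraries and at most 2 in a Fat library, within the limit of 3 reads that a count of 0 allows, a limit that covers counting error only. For Mmp20 and Mmp21 only the windows around their starts were searched, and their levels were not analysed here.

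Along the chromosome 9 cluster, 5 of its 10 genes were tested, and they went in different directions. At its start, Mmp13 had a log2 fold change of -0.60 and its neighbour Mmp12 had 0.31, while Mmp10 in the middle had 0.02. The adjacent Mmp8 and Mmp27, whose printed stretches hold no AP-1 letters, were the cluster genes that limma called. Both were lower in Fat, where 5.0% of all tested genes were called lower, and the call of Mmp8 was lost in some alternatives. edgeR's exact test also called Mmp13 lower and Mmp12 higher, and DESeq2 also called Mmp12 higher. Mmp1b, Mmp3, Mmp1a and Mmp7 were below the filter, and their windows, like those of Mmp13, Mmp10 and the second start of Mmp12, hold the AP-1 letters. Whether the presence or lack of these letters has a part in the changes was not tested.

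Levels of different genes were compared in TPM, which is also scaled for transcript length. In Con the order of the members was Mmp12 at 8154 ± 994, Mmp13 at 1312 ± 74.0, Mmp19 at 838.9 ± 44.7, Mmp8 at 390.5 ± 25.2, Timp1 at 290.3 ± 12.0 and Timp2 at 249.7 ± 2.91 TPM (SD, n = 2 each). Below these came Mmp14 at 80.2 ± 9.43, Mmp9 at 57.2 ± 7.99, Timp3 at 15.2 ± 1.71 and Mmp2 at 12.1 ± 0.70 TPM. No neighbours in this order overlapped in Con. Among all genes, Mmp12 ranked 16 by its mean TPM in Con and 12 in Fat.

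In Fat, 3 pairs of neighbours had changed places. Mmp19 at 1579 ± 201 TPM stood above Mmp13 at 898.7 ± 248 TPM, with Fat replicates of 1722 and 1437 against 1074 and 723.2 TPM. Mmp2 at 15.3 ± 0.25 TPM stood above Timp3 at 10.9 ± 0.058 TPM. Mmp9 at 67.8 ± 13.1 TPM and Mmp14 at 60.8 ± 2.65 TPM overlapped, since their libraries were at 58.6 and 77.0 and at 58.9 and 62.6 TPM. The rest kept the order of Con, with Mmp12 at 10283 ± 143, Mmp8 at 322.2 ± 21.5, Timp1 at 293.1 ± 15.3 and Timp2 at 255.8 ± 1.77 TPM. In Fat, Mmp8 and Timp1 nearly met, with a lowest Mmp8 library of 307.0 and a highest Timp1 library of 304.0 TPM. Among all genes, Mmp19 moved from rank 124 to 64 and Mmp13 from rank 75 to 120.

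**Figure D3:**
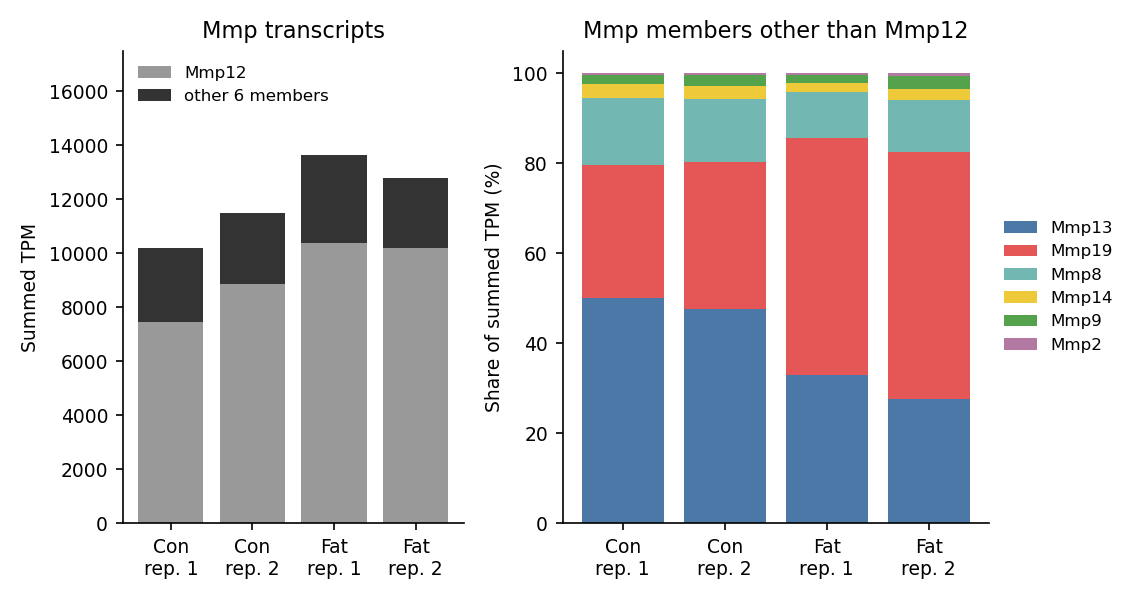
Share of each member other than Mmp12 in the summed TPM of those 6 MMP members, in percent, for each of the 4 libraries. Mmp13 holds the largest share in both Con libraries (49.97% and 47.49%) and Mmp19 in both Fat libraries (52.7% and 54.8%).

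Mmp12 made up 73.2% and 77.0% of the summed TPM of the 7 MMP members in Con and 76.1% and 79.5% in Fat, which overlap. Among the other 6, the share of Mmp13 was 49.97% and 47.49% in Con and 32.9% and 27.6% in Fat. The share of Mmp19 was 29.6% and 32.8% in Con and 52.7% and 54.8% in Fat. Thus the second most abundant MMP transcript by length-scaled level was the collagenase Mmp13 in Con and Mmp19 in Fat. Mmp8 went from 15.0% and 14.1% to 10.3% and 11.7%. Among the 3 TIMP members Timp3 was the smallest part, with 2.91% and 2.55% in Con and 1.98% and 1.91% in Fat.

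The summed TPM of the 7 MMP members over that of the 3 TIMP members was 18.1 and 21.0 in Con and 24.9 and 22.4 in Fat. Both Fat libraries were above both Con libraries, by 0.28 on the log2 scale, and the exact two-sided permutation test gave p = 0.333, the smallest that 2 libraries against 2 allow. The TIMP sum itself overlapped between the groups (562.8 and 547.6 TPM in Con, 547.6 and 571.9 TPM in Fat). Without Mmp12 the ratio was 4.85 and 4.84 in Con and 5.96 and 4.58 in Fat, so the groups overlapped and the difference was 0.11 on the log2 scale. An RNA ratio says nothing of the amount or activity of the proteins.

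**Figure D4:**
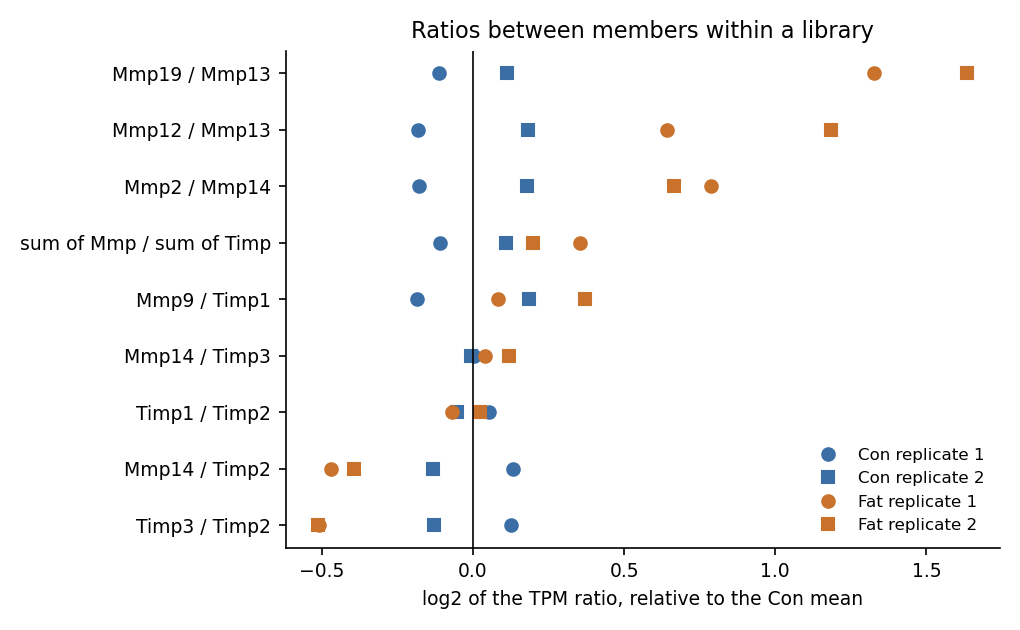
Log2 of TPM ratios within a library, relative to the Con mean, for the MMP sum over the TIMP sum and pairs of members. Each point is a library. For Mmp19 over Mmp13 both Fat libraries lie above both Con libraries, as follows from Mmp19 lying higher and Mmp13 lower in both. The ratio itself was 0.592 and 0.691 in Con and 1.60 and 1.99 in Fat.

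Ratios within a library do not depend on the scaling between libraries, and are given for the pairs without a test. Mmp19 over Mmp13 was 0.592 and 0.691 in Con and 1.60 and 1.99 in Fat, a log2 difference of 1.48. Mmp12 over Mmp13 was 5.46 and 7.03 in Con and 9.67 and 14.1 in Fat. Both ratios were thus higher in each Fat library than in each Con library. That follows from the members themselves, since Mmp19 and Mmp12 lay higher and Mmp13 lower in both Fat libraries. For the activation of MMP2 at the membrane, Mmp14 over Timp2 was 0.351 and 0.292 in Con and 0.231 and 0.244 in Fat, and Mmp2 over Mmp14 was 0.134 and 0.172 in Con and 0.262 and 0.241 in Fat. Neither of these ratios overlapped between the groups. For Mmp2 over Mmp14 this again follows from the members, since Mmp2 lay higher and Mmp14 lower in both Fat libraries. The ratio of Mmp14 to Timp3 differed little, at 5.30 and 5.26 in Con and 5.43 and 5.73 in Fat, and Mmp9 over its partner Timp1 overlapped, at 0.172 and 0.223 in Con and 0.207 and 0.253 in Fat.

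Genes around the MMPs were described in 6 lists. Proteins that activate MMPs, hold them at the cell surface or inhibit them without being TIMPs had 2 of 13 tested genes called by limma, both higher (3.99% of all tested genes), and a median log2 fold change of 0.06. Lcn2, whose product lipocalin binds MMP9, was at 18.6 and 18.1 CPM in Con and 15.1 and 14.6 CPM in Fat (-0.31, limma adjusted p = 0.0514). Both edgeR tests called Lcn2 lower, but DESeq2 did not. Cd44, of the same list, was at 706.5 and 663.6 CPM in Con and 861.1 and 773.9 CPM in Fat (0.25, limma adjusted p = 0.0852). edgeR's exact test and DESeq2 called Cd44 higher. Itgav, an integrin subunit, was at 142.1 and 134.8 CPM in Con and 187.2 and 194.2 CPM in Fat (0.46, limma adjusted p = 0.00514). Tfpi2, a serine protease inhibitor, was low at 1.09 and 1.28 CPM in Con and 2.68 and 2.05 CPM in Fat (0.93, limma adjusted p = 0.0382), a call lost without Con replicate 1 (0.82), Fat replicate 1 (0.75) or Fat replicate 2 (1.12) and with DESeq2 (adjusted p = 0.0755). Furin, the proenzyme convertase, was not called (0.06, limma adjusted p = 0.721).

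The plasminogen system, whose product plasmin activates several proMMPs, had 2 of 10 tested genes called higher and 1 lower, where 3.99% and 5.0% of all tested genes were, and a median of 0.02. Anxa2, a surface receptor for plasminogen and its activator, was at 818.5 and 962.6 CPM in Con and 1275 and 1214 CPM in Fat (log2 fold change 0.49, limma adjusted p = 0.0194). Eno1, an enolase that also binds plasminogen, had a log2 fold change of 0.57 (limma adjusted p = 0.00352), but 42.4% of its 75-base stretches also occur in near-identical copies such as Eno1b, which makes its value uncertain. Serpinb2, an inhibitor of plasminogen activators, had one of -0.29 (limma adjusted p = 0.0374), and lost the call without Con replicate 1 (-0.26) or Fat replicate 1 (-0.22) and with TPM (adjusted p = 0.0869). Plau, the gene of urokinase, was at 552.3 and 660.0 CPM in Con and 738.0 and 618.7 CPM in Fat and was not called.

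Among cathepsins and cystatins, the lysosomal cysteine proteases and their inhibitors, limma called 1 of 13, as lower, which is near the 5.0% called lower among all tested genes, and the median was -0.13. DESeq2 and edgeR's exact test each called 3 lower and 1 higher. Ctsc, whose product activates serine proteases of leukocyte granules, was at 650.8 and 543.3 CPM in Con and 373.4 and 301.3 CPM in Fat (log2 fold change -0.83, limma adjusted p = 0.00850). Ctsk, the collagen-cutting cathepsin of osteoclasts, had 0.18 and was not called (limma adjusted p = 0.272).

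ADAM and ADAMTS proteases, some of which TIMP3 also inhibits, were listed with the iRhoms that carry ADAM17 to the surface. In this list 3 of 21 tested genes were called, all higher (3.99% of all tested genes), and the median was 0.11. Adam8, a myeloid sheddase, was at 1380 and 1604 CPM in Con and 2169 and 2131 CPM in Fat (log2 fold change 0.53, limma adjusted p = 0.0160). Adamts1 was at 9.05 and 10.4 CPM in Con and 19.3 and 13.2 CPM in Fat (0.71, limma adjusted p = 0.0470), and lost the call without Con replicate 1 (0.60) or Fat replicate 1 (0.43), with TPM (adjusted p = 0.0810) and under the other filters. Adamts10 had a difference of 0.33 (limma adjusted p = 0.0292), with the call lost without Con replicate 2 (0.29) or Fat replicate 2 (0.27) and with TPM (adjusted p = 0.0522). Adam17, the shedding enzyme of TNF, was at 217.4 and 200.8 CPM in Con and 185.5 and 180.0 CPM in Fat and was not called (-0.19, limma adjusted p = 0.0965).

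**Figure D5:**
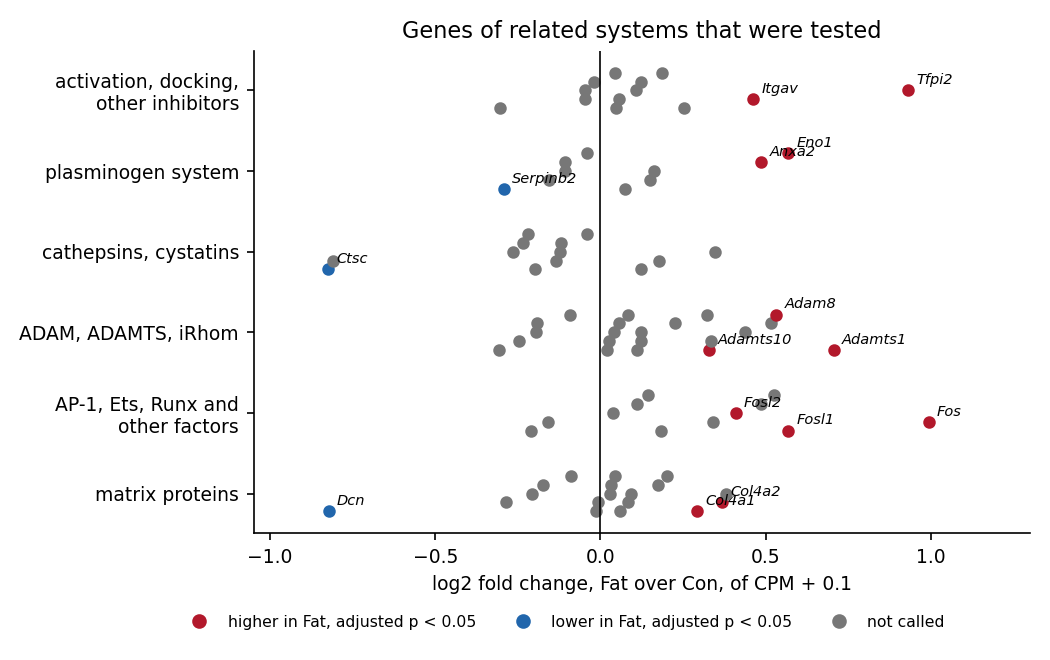
Log2 fold change of Fat over Con for each tested gene of the 6 related lists, with a row for each list and coloured points for genes with an adjusted p-value under 0.05. Fos is the highest point (0.99), and Ctsc (-0.83) and Dcn (-0.82) are the lowest called points.

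Among 12 tested genes of transcription factors with known sites in MMP promoters, 3 were called, all higher (3.99% of all tested genes), and the median was 0.26. All 3 encode Fos proteins, partners of Jun proteins in AP-1, whose letters were shown for the cluster. Fos was at 136.2 and 150.5 CPM in Con and 259.5 and 313.5 CPM in Fat (log2 fold change 0.99, limma adjusted p = 0.00328). Fosl2 had 0.41 (limma adjusted p = 0.0206), a call lost without Fat replicate 2 (0.41). Fosl1 had 0.57 (limma adjusted p = 0.0184), lost without Con replicate 1 (0.49) or Fat replicate 2 (0.53), and shares 57.2% of its exon bases with Ccdc85b on the opposite strand. The genes of the Jun proteins were not called, and Fat replicate 2 held the highest level of each: Jun was at 75.1 and 86.4 CPM in Con and 78.1 and 107.1 CPM in Fat, and Junb at 38.0 and 54.2 CPM in Con and 43.5 and 98.4 CPM in Fat. The tested cluster genes with AP-1 letters in their window had log2 fold changes of -0.60 (Mmp13), 0.31 (Mmp12) and 0.02 (Mmp10). They were not called by limma or edgeR's quasi-likelihood test. edgeR's exact test called Mmp13 lower and Mmp12 higher, and DESeq2 called Mmp12 higher. A link between the Fos genes, the AP-1 letters and the changes of the cluster genes was not tested.

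Of 18 tested genes of matrix proteins that MMPs cut, 2 were called higher and 1 lower, where 3.99% and 5.0% of all tested genes were, with a median of 0.04. Col4a1 and Col4a2, the chains of basement membrane collagen, had log2 fold changes of 0.29 and 0.37 (limma adjusted p = 0.0481 and 0.0449). With the TPM values neither was called (adjusted p = 0.0725 and 0.0800), nor without Con replicate 1 (0.24 and 0.34) or Fat replicate 2 (0.22 and 0.24), nor was Col4a2 without Con replicate 2 (0.39). Dcn, the gene of the collagen-binding proteoglycan decorin, was at 2.68 and 2.75 CPM in Con and 1.34 and 1.66 CPM in Fat (-0.82, limma adjusted p = 0.0358), a call lost without Con replicate 1 (-0.84), Con replicate 2 (-0.81) or Fat replicate 1 (-0.68) and with DESeq2 (adjusted p = 0.0825). Col1a1, a chain of the fibrillar collagen that MMP8, MMP13 and MMP14 cut, was at 195.2 and 214.8 CPM in Con and 175.6 and 253.5 CPM in Fat and was not called (0.04, limma adjusted p = 0.901).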

How the data were processed

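Bulk RNA was sequenced in 4 libraries, 2 from Con and 2 from Fat at 24 h, grouped and numbered by their labels. The CPM values were deposited by the authors as reads scaled by library size and a further factor between 0.990 and 1.01, and the TPM values were deposited by the authors with scaling for transcript length as well. The build in the submitters' processing notes is GRCm39, while the aligner, annotation and strand setting of the counting are not given in the sources used here. The reference at hand was GRCm38.p6 (RefSeq; GENCODE vM21 for overlaps), so coordinates are given for the printed stretches only. All values (100%) came out as whole reads (within 0.01 reads), so reads were recovered. The recovered totals, 33573852 to 40785872 reads, set the precision of low genes.

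Fat was compared with Con with limma 3.58.1 in R 4.3.3, with a mean-variance trend, on log2(CPM + 0.1). On the recovered reads, edgeR 4.0.16 and DESeq2 1.42.0 were run as alternatives. Also tried were the TPM values, other pseudocounts (1 CPM) and filters (none, or a mean of 5 CPM), rescaling by median ratios, no trend, a block for the replicate number, and the fit without each library. The sum without Mmp12 was added after the data were seen. The fits were tested on simulated data. For shared sequence, stretches of 75 bases at steps of 5 were matched exactly, and 0 of those of the members occurred in another gene.

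Named were the 10 members, the other MMP and TIMP genes, up to 4 called genes of each related list with any called against the majority, genes overlapping a member and markers of other cell types. Furin, Lcn2, Cd44, Plau, Ctsk, Adam17, Jun, Junb and Col1a1 were named after their values were seen. The members and lists were chosen with earlier results of these data known.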

Additional observations from a re-analysis of the deposited data

How the results depend on the processing

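With 2 libraries in each group an exact permutation test over libraries cannot reach 0.05 for a single gene. The limma calls rest on a spread that limma takes from all genes. Of all genes, 1122 were called, against 31 without the mean-variance trend and from 529 to 1131 when any library was left out. Of the members, 1 was called higher, 0 without the trend, 3 with edgeR's exact test (Mmp19, Mmp2 and Mmp12) and 2 with DESeq2 (Mmp19 and Mmp12). Of the members called lower, numbering 3, there was 1 with the TPM values (Timp3) and 0 without the trend, and between 2 and 4 with a library left out. The log2 fold change of Timp1 turned in sign with TPM (0.013) and ranged from -0.073 to 0.036 with a library left out. That of Timp2 turned with median ratios (-0.0057), both edgeR tests (-0.0021 in each) and DESeq2 (-0.0060) and ranged from -0.023 to 0.029, and that of Mmp10 ranged from -0.089 to 0.12. The log2 difference of the MMP over TIMP sum, 0.28, was 0.11 without Mmp12, 0.31 from CPM and between 0.17 and 0.39 with a library left out.

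The replicate numbers are shared by the labels of both groups, without a statement that they pair the libraries, and the deviations of libraries with the same number correlated at 0.20 across genes. With the replicate block 2520 genes were called, and of the members 3 were called higher (Mmp19, Mmp9 and Mmp2) and 4 lower, with Mmp13 added. The block left the log2 difference of the MMP over TIMP sum at 0.28.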
